A study of Arabidopsis with 12 samples.

Results

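EXPA4 (AT2G39700), EXPA8 (AT2G40610), EXLA1 (AT3G45970) and EXLA2 (AT4G38400) are expansin genes of Arabidopsis thaliana, and their transcript levels were followed on 12 arrays from 3 genotypes with and without methyl jasmonate (MeJA). They are 4 of the 18 expansin genes with a probe set of their own, out of 22589 features on the arrays, and each was read by 1 probe set. The 4 genes were chosen by name and selected on earlier results from these same arrays. EXPA8 was picked from its MeJA response in Col-0 and its difference between coi1-2 and Col-0, and the other 3 genes from their MeJA response in ein3 eil1. The 4 genes are also all of the expansins called lower with MeJA in Col-0, so that contrast is treated as used by the choice as well. Differences that share arrays with the choice are therefore given as descriptions with the standard error (SE) of the fit and no p-value. Tests are given for 4 results, the coi1-2 responses of EXPA4, EXLA1 and EXLA2 and the ein3 eil1 response of EXPA8. The last of these was already part of a count in the earlier results, so its p-value is not independent of them.

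Expansins are small secreted proteins that loosen the plant cell wall without cutting its polymers, most strongly at acid pH, and let turgor extend the growing cell. Alpha-expansins (EXPA) are the classical wall-loosening proteins of growing organs, beta-expansins (EXPB) form a second family, and the expansin-like A and B groups (EXLA, EXLB) are related by sequence, with less known of their activity. Jasmonate restrains seedling growth while it turns on defence. COI1 is the F-box protein through which jasmonate is perceived, and EIN3 and EIL1 are transcription factors through which ethylene changes gene expression.

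All groups were whole seedlings, 7 days old, kept on MS medium with long days at 23 °C, all in the Columbia background. Each genotype received 100 µM MeJA or the ethanol carrier (mock) for 4 h. Mock and MeJA seedlings were separate samples, and mock seedlings are also called untreated below. The genotypes were Col-0 (the wild type), the mutant coi1-2 and the double mutant ein3 eil1, with 2 Affymetrix ATH1 arrays in each of the 6 groups. The comparisons ask how MeJA responses differ when COI1, or both EIN3 and EIL1, are mutated. The labels do not say whether replicates came from separate cultures, so p-values measure no more than the spread between the arrays used, which can be technical.

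Levels are log2 RMA values as deposited, with array medians from 5.23 to 5.40 and lower quartiles from 3.74 to 3.87, and the number of arrays limits the precision of each value. EIN3 was at 9.26 to 9.59 on the 8 arrays labelled Col-0 or coi1-2 and at 5.91 to 6.25 on the 4 labelled ein3 eil1, while COI1 and EIL1 were not analysed here. Replicates of a group correlated at 0.9898 (ein3 eil1 MeJA) to 0.9961 (coi1-2 MeJA). ein3 eil1 MeJA replicate 2 correlated equally with its own replicate and with ein3 eil1 mock replicate 2 (0.9898), so ein3 eil1 responses are also given without it. Of the tissue markers, PYK10, a beta-glucosidase gene of roots, was at 11.23 to 12.73 and the root hair expansin EXPA7 at 6.07 to 7.42, above the array median on 12 of 12 arrays. The chosen markers of green tissue had no named probe set and were not analysed here. Whole seedlings mix many cell types, so fewer cells of a type and less RNA per cell cannot be told apart.

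The mean level of all 4 genes was lower with MeJA in each genotype. In 12 of 12 combinations of gene and genotype both MeJA arrays lay below both mock arrays. Over all features that pattern was found in 27.2% in Col-0, 21.8% in coi1-2 and 21.5% in ein3 eil1. The choice of the genes used their Col-0 responses and the ein3 eil1 responses of EXPA4, EXLA1 and EXLA2. In those combinations the pattern was largely built in by the choice, so the full count is no finding about the genes. The 4 genes differed in where they were high and in how far they fell, as the plot of levels by array shows.

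**Figure D1:**
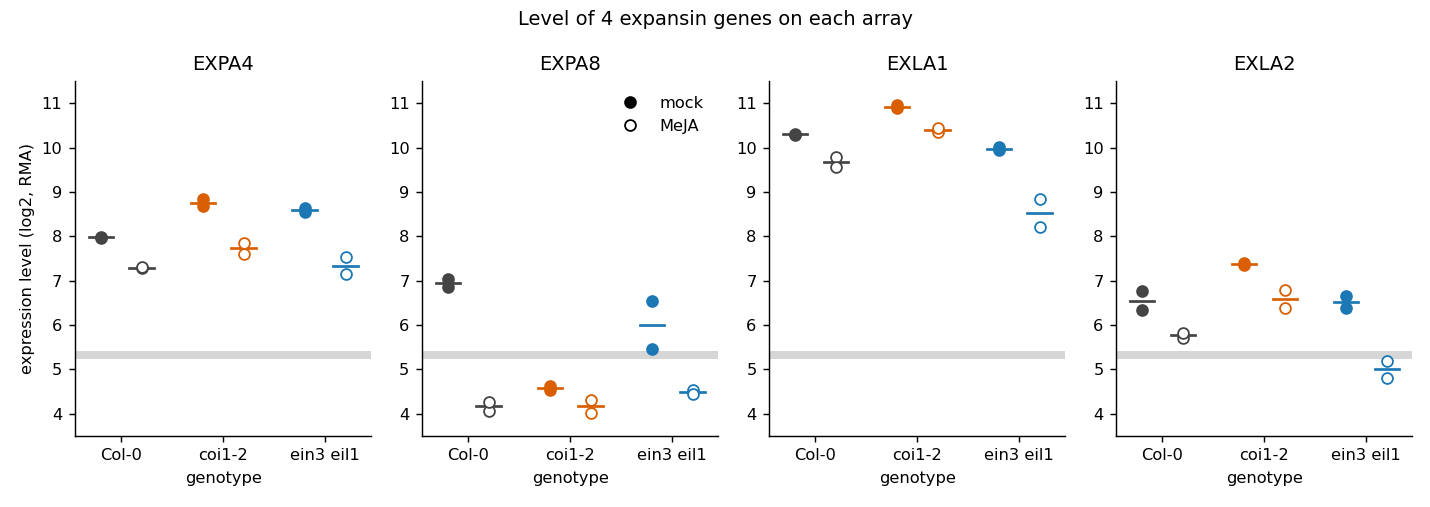
Expression level (log2, RMA) of EXPA4, EXPA8, EXLA1 and EXLA2 on each of the 12 arrays by genotype. Filled points are mock arrays, open points MeJA arrays, short lines group means (n = 2) and the grey band the range of the array medians. EXPA8 is above the band only in Col-0 and ein3 eil1 mock, and EXLA1 is the highest of the 4 on all arrays.

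EXPA8, an alpha-expansin, had the widest range, with group means from 6.94 in Col-0 mock to 4.16 in coi1-2 MeJA, a 6.88-fold span. Mock arrays of Col-0 read 7.02 and 6.86, and its MeJA arrays 4.07 and 4.27. The coi1-2 arrays read 4.53 and 4.63 with the carrier and 4.01 and 4.31 with the hormone. Without treatment the gene was thus high in Col-0 and low in coi1-2, whose mock arrays overlapped the MeJA arrays of ein3 eil1. The ein3 eil1 arrays read 6.54 and 5.46 without MeJA, against 4.54 and 4.45 with it. The mock arrays of ein3 eil1 differed by more than 1 log2 unit, the widest spread of any group for these 4 genes.

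The EXPA8 response to MeJA was −2.77 ± 0.26 (log2, SE, n = 2 per group) in Col-0, a 6.84-fold lower level, and −0.42 ± 0.26 in coi1-2. The coi1-2 value was −0.27 without coi1-2 MeJA replicate 1 and −0.57 without replicate 2. In ein3 eil1, a contrast that did not serve to pick it although an earlier count of expansins lower there included it, EXPA8 fell by 1.503 on the log2 scale (SE 0.26, n = 2 per group), 2.83-fold, with a limma adjusted p = 0.00531. The share of all features called lower in that contrast was 2.61%. Because the earlier count came from the same arrays, the EXPA8 p-value is not an independent test. The call was lost when only the 4 ein3 eil1 arrays were fitted (adjusted p = 0.074). Without ein3 eil1 mock replicate 1 the difference was −0.96 (limma adjusted p = 0.0252), and without mock replicate 2 it was −2.04 (limma adjusted p = 0.00062). Without ein3 eil1 MeJA replicate 2 it was −1.46 (limma adjusted p = 0.0205). On 8 of 12 arrays EXPA8 lay below the array median, and on 0 of 12 below the lower quartile. No detection calls were used, so the size of a difference between groups at that level is uncertain.

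Of the 6 group means of EXPA8, the lowest 4 lay close together. The means in coi1-2 mock (4.58), ein3 eil1 MeJA (4.50), Col-0 MeJA (4.17) and coi1-2 MeJA (4.16) were neighbours that differed by less than 2 SE. Col-0 mock and ein3 eil1 mock differed by 0.94 with an SE of 0.26, and ein3 eil1 mock lay 1.42 above coi1-2 mock.

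EXPA4, the other alpha-expansin, read 7.98 and 7.96 on the mock arrays of Col-0 and 7.28 and 7.30 on its MeJA arrays. For coi1-2 the values were 8.67 and 8.84 on the mock arrays and 7.61 and 7.85 on the MeJA arrays. The ein3 eil1 arrays read 8.64 and 8.56 without the hormone, against 7.52 and 7.15 with it. Both mutants therefore lay above Col-0 under mock, and under MeJA the arrays of ein3 eil1 and Col-0 overlapped.

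EXPA4 fell in coi1-2 by 1.03 on the log2 scale (SE 0.15, n = 2 per group), 2.04-fold, with a limma adjusted p = 0.00169. Of the 3 genes tested in this contrast 2 were called lower, EXPA4 and EXLA2, against 1.01% of all features. The 3 genes were picked from their MeJA response in ein3 eil1 and are also called lower in Col-0. The share over all features is therefore no fair expectation for them, and the count is no sign of enrichment. The EXLA2 call was close to the threshold (limma adjusted p = 0.0477), as described below. The EXPA4 response was −0.68 ± 0.15 in Col-0 and −1.26 ± 0.15 in ein3 eil1, or −1.07 without ein3 eil1 MeJA replicate 2. Among neighbouring groups, coi1-2 mock and ein3 eil1 mock (8.76 and 8.60), Col-0 mock and coi1-2 MeJA (7.97 and 7.73), and ein3 eil1 MeJA and Col-0 MeJA (7.34 and 7.29) differed by less than 2 SE.

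EXLA1, an expansin-like A gene, had the highest level of the 4, with its mean over the arrays at the 94.4th percentile of all features on this scale, which is not corrected for differences between probe sets. Col-0 arrays read 10.31 and 10.29 for mock and 9.78 and 9.57 for MeJA. The coi1-2 arrays read 10.89 and 10.96 without MeJA, against 10.36 and 10.45 with it, so that treated coi1-2 lay just above untreated Col-0. Untreated ein3 eil1 read 10.02 and 9.94 and treated ein3 eil1 8.21 and 8.84, the lowest of the 6 groups.

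The EXLA1 response was −0.63 ± 0.17 in Col-0 and −1.46 ± 0.17 in ein3 eil1 (SE, n = 2 per group). The latter was −1.77 without ein3 eil1 MeJA replicate 2 and −1.14 without replicate 1. In coi1-2 the difference was −0.52 ± 0.17, which did not pass (limma adjusted p = 0.205). It passed when either ein3 eil1 MeJA array was left out (limma adjusted p = 0.0392), which lowers the pooled spread and does not change the difference. Col-0 mock was less than 2 SE from coi1-2 MeJA and from ein3 eil1 mock, and ein3 eil1 mock was less than 2 SE from Col-0 MeJA.

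EXLA2, of the same expansin-like A group, read 6.33 and 6.76 on untreated and 5.71 and 5.82 on treated Col-0 arrays. The coi1-2 arrays gave 7.40 and 7.35 without the hormone and 6.79 and 6.38 with it. Those of ein3 eil1 gave 6.38 and 6.64 for mock, against 4.80 and 5.19 for MeJA. The order of the groups was that of EXLA1, and only the 2 ein3 eil1 MeJA arrays lay below their array medians. coi1-2 MeJA, Col-0 mock and ein3 eil1 mock, with means of 6.58, 6.55 and 6.51, overlapped.

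EXLA2 was lower with MeJA in coi1-2 by 0.79 on the log2 scale (SE 0.19, n = 2 per group), 1.73-fold, with a limma adjusted p = 0.0477 close to the threshold of 0.05. The call was lost when any 1 of 8 arrays was left out. Limma adjusted p-values were 0.231 and 0.159 without coi1-2 mock replicates 1 and 2, 0.0695 and 0.407 without coi1-2 MeJA replicates 1 and 2, 0.0638 without either ein3 eil1 mock array and 0.0664 without either Col-0 MeJA array. The response was −0.78 ± 0.19 in Col-0 and −1.52 ± 0.19 in ein3 eil1, the latter −1.71 without ein3 eil1 MeJA replicate 2. The Col-0 response was −0.996 without Col-0 mock replicate 1 and −0.57 without replicate 2.

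**Figure D2:**
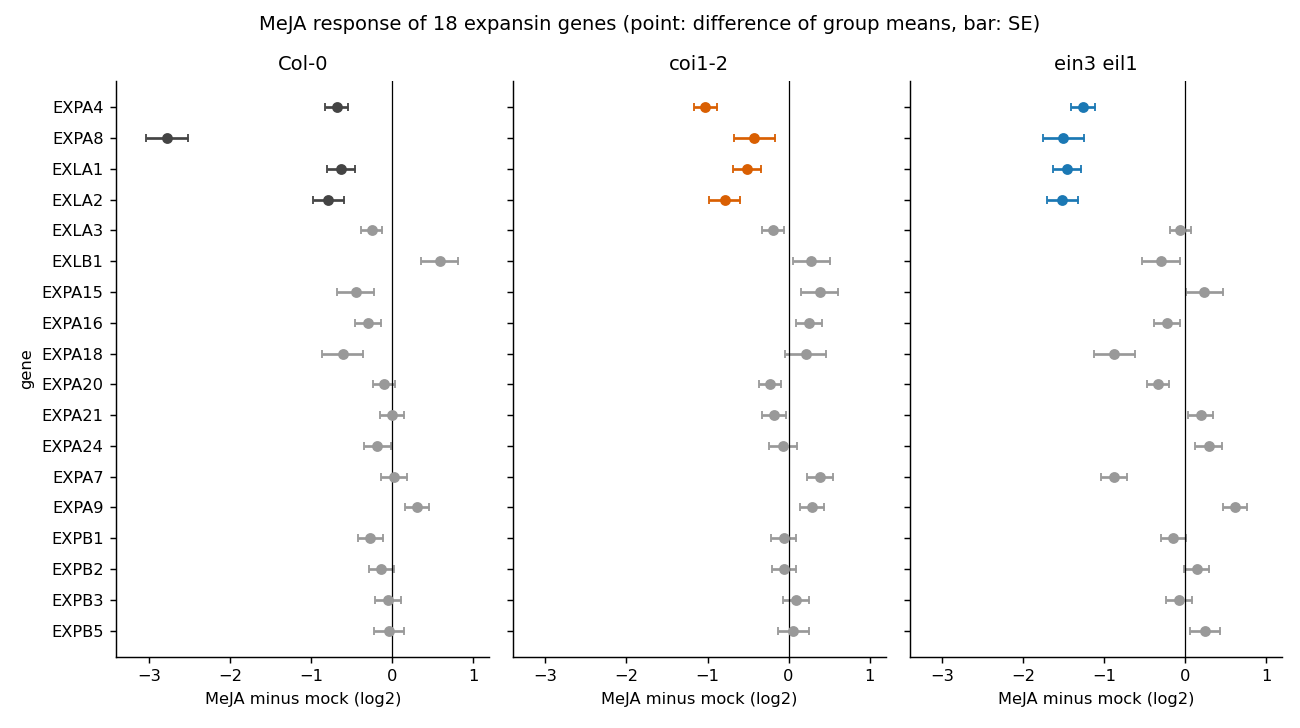
MeJA response (MeJA minus mock, log2) of 18 expansin genes, with 1 panel per genotype. Points are differences of group means, bars are SE (n = 2 arrays per group), and the 4 coloured genes at the top are EXPA4, EXPA8, EXLA1 and EXLA2, all below 0 in each genotype. The grey points are the 14 other expansins, which lie between −0.88 and 0.62.

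Responses of different genotypes were set side by side through their difference, as a description. Relative to Col-0, the log2 response in coi1-2 differed by 2.35 ± 0.36 for EXPA8, −0.35 ± 0.21 for EXPA4, 0.11 ± 0.25 for EXLA1 and −0.01 ± 0.27 for EXLA2 (SE, n = 2 arrays in each of 4 groups). The smaller EXPA8 response in coi1-2 thus started from a mock level that was already near the MeJA level of Col-0. In ein3 eil1 the response differed from that of Col-0 by 1.27 ± 0.36 for EXPA8, −0.58 ± 0.21 for EXPA4, −0.83 ± 0.25 for EXLA1 and −0.73 ± 0.27 for EXLA2. The EXPA8 difference was therefore smaller in size than in Col-0 and those of the other 3 genes were larger. For EXPA8 this difference was 0.73 without ein3 eil1 mock replicate 2, and for EXLA1 it was −0.52 without ein3 eil1 MeJA replicate 1. These comparisons share the Col-0 arrays.

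The same levels can be read as differences of each mutant from Col-0. Under mock, coi1-2 was above Col-0 for 3 of the 4 genes, by 0.79 ± 0.15 for EXPA4, 0.62 ± 0.17 for EXLA1 and 0.83 ± 0.19 for EXLA2 (log2, SE, n = 2 per group), and below it for EXPA8 by a difference of −2.36 ± 0.26. With MeJA, EXLA1 (0.73 ± 0.17), EXLA2 (0.82 ± 0.19) and EXPA4 (0.44 ± 0.15) had higher means in coi1-2, and EXPA8 was at −0.01 ± 0.26. The EXLA genes were thus about as far above Col-0 with MeJA as without it.

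In ein3 eil1 under mock, EXPA4 was above Col-0 (0.63 ± 0.15), EXPA8 below it (−0.94 ± 0.26), and EXLA1 (−0.32 ± 0.17) and EXLA2 (−0.04 ± 0.19) were within 2 SE of it. The EXPA8 difference was −0.41 without ein3 eil1 mock replicate 2 and −1.48 without replicate 1. Under MeJA, EXLA1 (−1.15 ± 0.17) and EXLA2 (−0.77 ± 0.19) were below Col-0, while EXPA4 (0.05 ± 0.15) and EXPA8 (0.33 ± 0.26) were within 2 SE of it. Centring each array on its median moved the median of all features from −0.03 to −0.15 in the mock contrast of ein3 eil1. In the MeJA response of ein3 eil1 that median moved from 0.01 to 0.10. The 12 MeJA responses of the 4 genes were below 0 under each alternative run. Their sign was largely fixed, because most of these responses served the choice and most alternatives leave a difference unchanged.

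**Figure D3:**
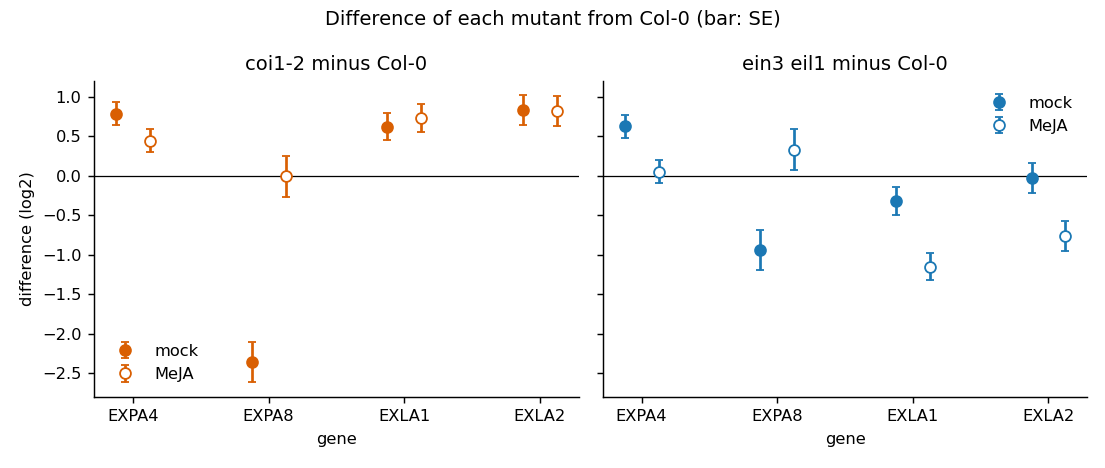
Difference of coi1-2 (left) and ein3 eil1 (right) from Col-0 in log2 units for the 4 genes, with mock as filled and MeJA as open points and bars of 1 SE (n = 2 arrays per group). EXPA8 is −2.36 in coi1-2 under mock and −0.01 under MeJA, whereas both EXLA genes differ from Col-0 by more in ein3 eil1 under MeJA than under mock.

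The root gene PYK10 and the root hair gene EXPA7 were lower in coi1-2 mock than in Col-0 mock, as EXPA8 was. With MeJA neither fell in Col-0 or coi1-2, where EXPA4, EXPA8, EXLA1 and EXLA2 had lower means. In coi1-2 under mock PYK10 was at 11.25 and 11.23, against 12.18 and 12.22 in Col-0, a difference of −0.97 ± 0.13 (log2, SE, n = 2 per group, limma adjusted p = 0.000329). EXPA7 was lower there as well, by 0.86 (a difference of −0.86 ± 0.16, limma adjusted p = 0.00345). These were the only measured genes of 3 root and 3 root hair markers. Their part in the low EXPA8 level of coi1-2 was not tested. With MeJA, PYK10 rose in coi1-2 by 0.74 ± 0.13 (limma adjusted p = 0.00669) and was at 0.40 ± 0.13 in Col-0 and −0.14 ± 0.13 in ein3 eil1, which did not pass. EXPA7 was at 0.39 ± 0.16 in coi1-2 and 0.02 ± 0.16 in Col-0, which did not pass, and fell by 0.88 in ein3 eil1 (SE 0.16, limma adjusted p = 0.00835), where EXPA4, EXLA1 and EXLA2 had their largest differences. Its part in those differences was not tested. EXPA18, a root hair expansin outside the marker list, was also lower in coi1-2 mock than in Col-0 mock (−1.04 ± 0.26, limma adjusted p = 0.0168). With MeJA, EXPA18 was at −0.61 ± 0.26 in Col-0, 0.21 ± 0.26 in coi1-2 and −0.87 ± 0.26 in ein3 eil1, none of which passed. The part of EXPA18 in the differences above was not tested.

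The background of the family was 14 other expansins, 8 alpha-expansins, 4 beta-expansins and 2 expansin-like genes, of which 7 lay below the array median on 12 of 12 arrays. In Col-0, limma called 0 of the 14 lower and 0 higher with MeJA, with 2 at an unadjusted p under 0.05. Over all features 3.07% were called lower and 4.56% higher. The count of 0 lower was fixed in advance, because the 4 genes are all of the expansins called lower in that contrast. The lowest of the 14 was EXPA18, a root hair expansin, at −0.61 ± 0.26 (limma adjusted p = 0.215). That was close to the EXLA1 difference of −0.63 ± 0.17, the smallest of the 4 genes. EXPA18 passed when either ein3 eil1 MeJA array was left out. The highest was EXLB1 at 0.59 ± 0.23 (limma adjusted p = 0.173). In coi1-2, limma called 0 of the 14 in either direction, with 1 at an unadjusted p under 0.05, against 1.01% of all features called lower and 1.55% called higher. There the lowest was EXPA20 (−0.23) and the highest EXPA7 (0.39).

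In ein3 eil1, 1 of the 14 was lower with MeJA and 1 higher, against 2.61% of all features called lower and 1.68% called higher. EXPA7 was the gene called lower, a call lost without ein3 eil1 mock replicate 1. EXPA9 rose by 0.62 ± 0.15 (limma adjusted p = 0.0353), a call lost when either coi1-2 MeJA array, the first ein3 eil1 MeJA array or the second ein3 eil1 mock array was left out. The median response of the 14 was −0.11 in Col-0, 0.08 in coi1-2 and −0.07 in ein3 eil1, beside −0.03, 0.00 and 0.01 over all features. EXLA3, the neighbour of EXLA1 in the TAIR10.1 gene order, was below the array median on 12 of 12 arrays and at −0.25, −0.19 and −0.06 in the 3 responses.

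Between genotypes, 3 of the 14 other expansins were lower in coi1-2 than in Col-0 under mock, EXPA15 (−1.07 ± 0.23), EXPA18 (−1.04 ± 0.26) and EXPA7, against 13.5% of all features called in either direction. Under MeJA 1 was called, EXPA16 at 0.87 ± 0.16 (limma adjusted p = 0.00471), against 7.29% of features. EXPA16 stood above Col-0 in coi1-2 as EXPA4 and the EXLA genes did. In ein3 eil1, 0 of the 14 were called under mock by limma, with 2 at an unadjusted p under 0.05, against 9.33% of features. Under MeJA EXPA7 (−1.03 ± 0.16, limma adjusted p = 0.00217) and EXLB1 (−0.93 ± 0.23, limma adjusted p = 0.0341) were lower than in Col-0, against 5.48% of features.

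Other cell wall genes, taken by symbol, were set beside the expansins. Xyloglucan endotransglucosylases (XTH) cut and rejoin the xyloglucan that ties cellulose together. Of 9 measured, 5 were lower with MeJA in Col-0, with the smallest p-values for XTH26 (−1.19 ± 0.16), XTH33 (−1.40 ± 0.21) and XTH19 (−1.87 ± 0.30), and the list had a median of −0.72. Over all features 3.07% were called lower in Col-0, 1.01% in coi1-2 and 2.61% in ein3 eil1. In coi1-2, 2 fell, XTH19 (−1.82 ± 0.30) and XTH26 (−0.94 ± 0.16), with a median of −0.31. In ein3 eil1, 4 fell, XTH16 (−1.24 ± 0.17), XTH33 (−1.25 ± 0.21), XTH21 (−0.75 ± 0.14) and XTH18 (−0.76 ± 0.18), with a median of −0.75. The difference between these counts was not tested.

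Genes for wall synthesis and for pectin were counted in the same way. Of 8 cellulose synthase-like genes, enzymes that build wall polysaccharides, limma called 0 in Col-0 and 0 in coi1-2, with 2 and 1 at an unadjusted p under 0.05. Over all features 3.07% were called lower and 4.56% higher in Col-0, and 1.01% lower and 1.55% higher in coi1-2. In ein3 eil1, where 2.61% of all features were called lower and 1.68% higher, CSLC04 fell (−0.75 ± 0.13, limma adjusted p = 0.00648) and CSLC5 rose (0.70 ± 0.18, limma adjusted p = 0.0468). Of 4 pectin methylesterase genes, which demethylate pectin and so change wall stiffness, 1 was called, ATPMEPCRB in coi1-2 at −2.26 ± 0.15 (limma adjusted p = 6.64e-06). ATPMEPCRB was above Col-0 in coi1-2 by 3.46 under mock and still by 1.64 under MeJA, so its fall there was from a higher level. In Col-0 limma called 0 of the 4, with 3 at an unadjusted p under 0.05 and a median of −0.41, and in ein3 eil1 0 of the 4, with 2 at an unadjusted p under 0.05 and a median of −0.32.

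**Figure D4:**
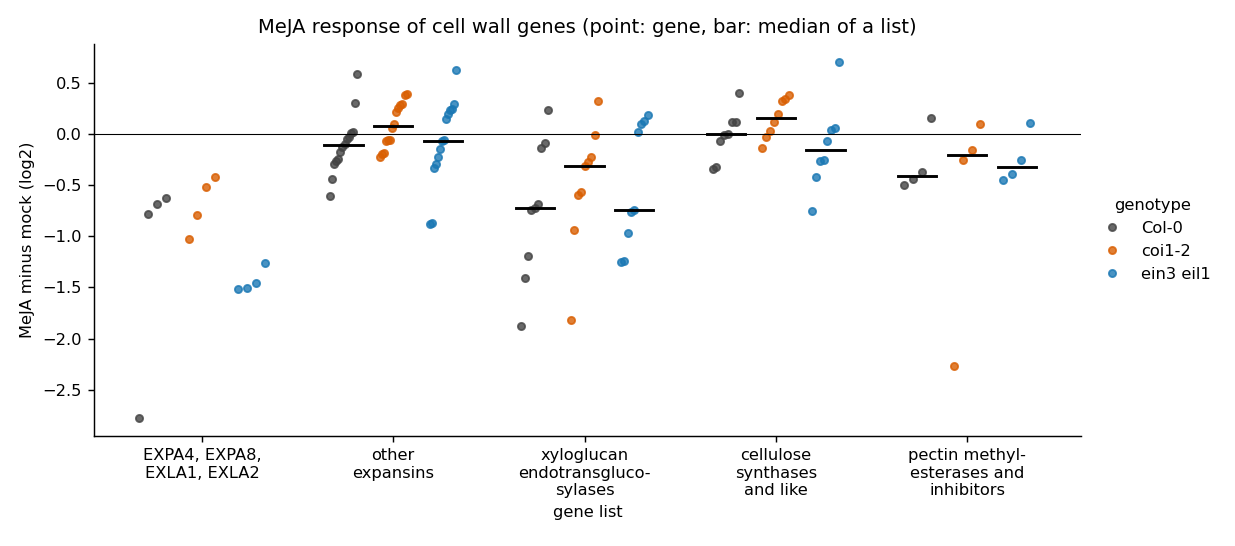
MeJA response (MeJA minus mock, log2) of each gene in 5 lists, by genotype, with black bars for the median of each list other than the 4 genes chosen on these data. The XTH list has medians of −0.72 in Col-0, −0.31 in coi1-2 and −0.75 in ein3 eil1, and the other expansins have medians between −0.11 and 0.08.

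Over the 12 arrays, EXLA1 and EXLA2 followed each other closely (Pearson r = 0.95). EXLA1 ranked 6th of 13355 other named genes by likeness to EXLA2, and EXLA2 ranked 13th by likeness to EXLA1. EXPA4 was at r = 0.772 with EXLA2 and 0.651 with EXLA1, and EXPA8 was at 0.391 with EXPA4, 0.201 with EXLA2 and 0.177 with EXLA1. EXPA8 was thus the least like the rest of the 4, and its highest correlation among the other expansins was 0.75 with EXPA18. It was chosen on other contrasts of these same arrays than the rest, so a separate pattern was partly built in. EXPA4, EXLA1 and EXLA2 were all chosen on the ein3 eil1 response, so their likeness to each other was partly built in as well. These correlations describe 12 arrays that share groups, RNA extracts of whole seedlings and a common normalization.

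The named genes most like each of the 4 were found with the same measure. For EXPA4 they were AT5G22580 (0.941), AT4G38080 (0.94), the peroxidase gene PRX52 (0.935), the subtilisin-like protease gene ARA12 (0.927) and AT2G16630 (0.918). For EXPA8 they were AT3G07010 (0.953), AT5G51560 and AT5G20890 (both 0.944), AT5G45670 (0.942) and AT1G09750 (0.929). For EXLA1 they were AT1G15740 and AT4G35320 (both 0.981), AT1G50040 (0.979), AT4G02540 (0.972) and AT1G75760 (0.968). For EXLA2 they were AT1G50040 (0.961), AT1G15740 (0.96), AT5G21070 and AT4G35320 (both 0.956) and WES1, an auxin-conjugating GH3 gene (0.952). Of the 5 genes most like EXLA1, 3 were also among the 5 most like EXLA2, and neither EXPA gene shared any of its 5 with another of the 4.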

How the data were processed

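RNA of 12 whole-seedling samples was read on Affymetrix ATH1 arrays. The authors deposited log2 expression values per probe set, and the submitters' processing notes name Affymetrix Expression Console, RMA and Partek, whose versions and order are not given in the sources used here. Because RMA brings all arrays to nearly the same distribution, a shift of most transcripts together is hidden. Of 22810 probe sets 64 controls were left out. Of the rest, 13513 carried a single gene name, 503 more than 1 and 8730 no name here, and 2 expansin probe sets shared by several genes were not named. Averaging the probe sets of 146 genes gave 22589 features, of which 13356 were named genes, 11799 of them by locus code. Families taken by symbol miss members without a symbol.

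All features were fitted as 6 group means with limma 3.58.1 in R 4.3.3 (6 residual degrees of freedom, prior 6.24), with Benjamini-Hochberg adjustment over all features and a threshold of 0.05. The script was tested on simulated data. No filter on low values was used. Tables were read with Python 3.11.15 and pandas 2.3.3, and figures were drawn with matplotlib 3.10.9.

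The genes, lists and tests were chosen with earlier results of these data known. Tests were planned for more contrasts of EXPA4, EXLA1 and EXLA2, in Col-0 and between coi1-2 and Col-0. They are given as descriptions because the 4 genes turned out to be all the expansins called lower in Col-0. Named were the 4 genes, the mutated genes, other expansins with the extreme responses or past the threshold, the 5 most correlated named genes per gene, and up to 3 genes per wall list and genotype by smallest p, beside which all called XTH genes of ein3 eil1 are given. Promoter and protein sequences were not used here. Alternatives were quantile normalization, median centring, eBayes with trend and robust, dropping features below the 25th or the 50th percentile of level, only the arrays of a contrast, the replicate number as a block, each array left out, the probe set with the highest mean, named genes only and a threshold of 0.01.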

Additional observations from a re-analysis of the deposited data

How the results depend on the processing

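For the 4 genes 36 differences were recomputed, and 32 kept their sign in every setting, left-out arrays included. Leaving aside left-out arrays, 313 of 315 values kept their call or moved by less than the spread between replicates. Values without a test were compared by size alone, which among these alternatives only quantile normalization and median centring can change. Most of the 313 were therefore fixed in advance and say little about robustness. The 12 MeJA responses were below 0 under every alternative run, a sign that the choice of the genes had largely fixed. The 2 exceptions kept their size and lost the call: EXLA2 in coi1-2 among named genes only (−0.79, limma adjusted p = 0.0588, which tests fewer features) and EXPA8 in ein3 eil1 with the arrays of the contrast only (−1.50, limma adjusted p = 0.074, which uses fewer arrays). EXPA8 could not be tested above the 50th percentile of level, where it was left out. Under the replicate block 3 of the 4 tested results were called, as without it, with limma adjusted p-values of 0.00304 (EXPA4), 0.0499 (EXLA2) and 0.22 (EXLA1) in coi1-2 and 0.00716 (EXPA8) in ein3 eil1. Same-numbered arrays deviated together by over 0.1 in 4 of 15 pairs of groups (r from −0.218 to 0.233), so the numbers were not taken as pairing. When 1 array was left out, the coi1-2 response ranged from −0.56 to −0.47 for EXLA1 and from −0.99 to −0.59 for EXLA2. The ein3 eil1 response ranged from −1.44 to −1.07 for EXPA4 and from −1.77 to −1.14 for EXLA1. Of the other expansins, 0 to 1 were called lower in Col-0, and in ein3 eil1 0 to 1 lower and 0 to 1 higher. In ein3 eil1, eBayes with trend and robust called 2 lower, the arrays of the contrast only 0 lower and 0 higher, and a threshold of 0.01 called 0 higher. With 2 arrays per group, small differences cannot be told from the spread between arrays, and EXPA8, below the array median on 8 of 12 arrays, had no detection call.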

Other observations

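Among expansins outside the 4 genes, singled out after their values were seen, EXPA9 ran opposite to EXLA1 over the 12 arrays (Pearson r = −0.895), EXLA2 (−0.948) and EXPA4 (−0.776). EXPA9 was at 8.53 and 8.40 in ein3 eil1 MeJA, where EXLA1 was lowest, and at 7.49 and 7.51 in coi1-2 mock, where EXLA1 was highest. EXPA16 followed EXLA1 more closely (r = 0.771) than EXPA4 did (0.651), with 9.66 and 9.70 in coi1-2 MeJA and 8.58 and 8.49 in ein3 eil1 MeJA. Untreated Col-0 gave 7.77 and 7.49 for EXPA18 and untreated coi1-2 6.42 and 6.75, so that both EXPA18 and EXPA8 were lower in coi1-2. These values are descriptions of arrays that share groups and a normalization.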
